A study of Mus musculus with 6 samples.

Results

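The 9 genes described here, Cs, Idh3a, Idh3b, Idh3g, Ogdh, Sucla2, Suclg1, Fh1 and Mdh2, encode enzymes and enzyme subunits of the tricarboxylic acid cycle. They were taken by symbol from a list drawn up with earlier results of these data known, and all 9 had a row among the 17193 genes measured. Their messenger RNA levels come from RNA sequencing of astrocytes, which were pulled down through their surface antigen ACSA-2 with microbeads from the brains of wild-type C57BL/6 mice aged 3 months. Of the 6 libraries, 3 came from mice labelled Mock and 3 from mice given quinpirole, an agonist of the dopamine D2 receptor. The labels name treatment as the only difference between the groups, and no allele or transgene. They give no litter, batch or day, so such a difference between the groups could not be told apart from treatment. The comparison asks how transcript levels in isolated astrocytes differed after the agonist was given to the animal. The labels do not say whether a library was 1 mouse or a pool, so each p-value measures the spread between these libraries, which may be partly technical.

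Values are FPKM, fragments per kilobase of transcript scaled to the mapped total of the library. Because FPKM is a level per length, levels of different genes are set side by side within a library. The gene lengths used for FPKM are not given, so small gaps in level between genes are uncertain. Spacing of low values put the depth at about 22300000 (Quinpirole 3) to 27600000 (Mock 2) fragments per library, an estimate in which 60.2% to 68.9% of low values fell within 0.1 of a whole fragment. The FPKM sums over all genes were 401769 to 413730 in Mock and 425244 to 437164 in quinpirole libraries, and 1181 to 1235 against 1314 to 1476 genes were listed at 0. FPKM is thus not on an equal total in the groups, and differences between libraries are also given under other scalings. All 10 astrocyte markers were present, with Gfap between 482 and 560 FPKM and Aldh1l1 between 165 and 182. The lowest of the 10 were Slc1a2, between 5.15 and 8.55 FPKM, and S100b, between 5.01 and 6.18. The 10 markers summed to 1489 to 1650 FPKM in Mock and 1478 to 1508 FPKM in quinpirole libraries. Of these 10 markers, 3 had a higher mean after quinpirole, and 2 (Slc1a2 and Atp1b2) passed the test as lower. The 8 neuronal markers summed to 43.7 to 45.3 against 43.2 to 48.8 FPKM, nearly all of it Tubb3 and Map2, while Rbfox3 stayed at or under 0.0495 FPKM and Snap25 was listed at 0 in 1 library. The 7 microglial markers summed to 196 to 204 against 188 to 202 FPKM, with 4 higher in mean and none called. The 8 oligodendrocyte lineage markers summed to 311 to 319 against 333 to 355 FPKM, so these groups did not overlap. That sum was mostly Olig1, which was called higher, and Mog and Mobp were each listed at 0 in a library. The 8 endothelial and mural markers summed to 2554 to 2723 against 2737 to 2909 FPKM. These groups did not overlap either, but nearly all of the sum was Acta2. Pecam1, Tek, Cdh5 and Rgs5 each stayed under 1 FPKM in every library. Of the 8 markers, 3 had a higher mean after quinpirole, and 1 (Pdgfrb) was called lower. The 6 ependymal markers summed to 147 to 164 against 146 to 155 FPKM, with none called and Tmem212 listed at 0 in a library of each group. The part of these markers in the differences given below was not tested, and in bulk libraries fewer cells of a type cannot be told apart from less RNA per cell.

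The tricarboxylic acid cycle runs in the mitochondrial matrix and oxidizes the acetyl group of acetyl-CoA, passing electrons to NADH and to the respiratory chain. Its intermediates also leave the cycle, and in astrocytes 2-oxoglutarate and oxaloacetate link it to glutamate, glutamine and aspartate. Astrocytes carry pyruvate carboxylase, which refills the cycle from pyruvate and which neurons largely lack.

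The sequence just ahead of the annotated start is shown for the members with the greatest changes, Fh1 and Suclg1, and for Idh3g, the only member with more than 1 kind of searched motif in a single window. The sequences are RefSeq entries on GRCm38.p6, read 5′ to 3′ on the coding strand, and hold no base of the annotated gene. For Fh1 this is chr1:175625636-175625885 on the minus strand, for Suclg1 chr6:73248255-73248381 on the plus strand and for Idh3g chrX:73786898-73787147 on the minus strand. Capitals mark matches to the searched motifs.
Fh1: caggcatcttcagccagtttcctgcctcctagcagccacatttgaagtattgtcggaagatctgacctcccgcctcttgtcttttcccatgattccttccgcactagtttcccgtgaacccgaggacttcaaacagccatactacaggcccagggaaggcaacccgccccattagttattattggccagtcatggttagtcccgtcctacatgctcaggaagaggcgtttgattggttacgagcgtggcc
Suclg1: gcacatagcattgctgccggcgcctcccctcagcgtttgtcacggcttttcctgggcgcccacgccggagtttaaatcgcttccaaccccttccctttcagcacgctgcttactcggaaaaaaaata
Idh3g: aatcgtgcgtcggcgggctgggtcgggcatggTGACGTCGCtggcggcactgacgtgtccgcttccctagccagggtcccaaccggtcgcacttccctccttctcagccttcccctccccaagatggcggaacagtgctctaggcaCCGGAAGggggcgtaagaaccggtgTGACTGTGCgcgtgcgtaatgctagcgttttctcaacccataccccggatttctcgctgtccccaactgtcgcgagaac

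Of the 9 members, 8 had at least 1 RefSeq window reaching from 250 bases before to 50 bases after the start, and Idh3a had none. Matching windows were counted on both strands among all 32851 windows of that kind, and no motif overlapped another in Idh3g. TGACNNNGC, the core of the antioxidant response element that Nrf2 binds, was found in Idh3g at positions -218 and -79 from the start and in Sucla2, that is in 2 of 8 members against 12.4% of all windows. The Sucla2 window (chr14:73552536-73552835) lies inside the annotated gene (chr14:73525319-73596142) and not ahead of its start. In these comparisons members are counted as genes, while the shares are of windows. CCGGAAG, the ETS motif, was found in Idh3b and in Idh3g at position -104, 2 of 8 against 8.86%. GCGCATGC, the core of the NRF1 motif, was found in Ogdh alone, 1 of 8 against 2.71%, and AAGGTCA, a motif of estrogen-related receptors, also in Ogdh alone, 1 of 8 against 4.72%. Ogdh had 6 windows, so it had more chances to match than the others. Its matching windows, which begin at chr11:6291920, 6292308 and 6292329, also lie inside the annotated gene (chr11:6291633-6356642). Fh1, Suclg1, Cs and Mdh2 held none of the 4 motifs in these windows. These matches are letters in a window and not measured sites of binding.

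After quinpirole, 3 of the 9 members rose: Fh1, which encodes fumarase, Suclg1, the alpha subunit of succinate-CoA ligase, and Idh3a, the catalytic subunit of the NAD-dependent isocitrate dehydrogenase. None fell. The increases were small, from 11.1% for Idh3a to 19.8% for Fh1. The test was limma on log2(FPKM + 1) over 12255 genes with a mean of at least 1 FPKM, with Benjamini-Hochberg adjustment over all of them and a threshold of 0.05. Across those genes, 10.9% were called in either direction and 5.74% were called higher, which is the background for the 3 of 9. The FPKM groups did not overlap and were higher after quinpirole for 6 members (Cs, Idh3a, Idh3b, Suclg1, Fh1 and Mdh2), against 20.0% of all genes tested. The fitted log2 fold change was positive for 8 of 9 members, with a median of 0.10, against 6593 of 12255 genes and a median of 0.02 overall. All fold changes below are on the log2(FPKM + 1) scale as quinpirole minus Mock.

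**Figure D1:**
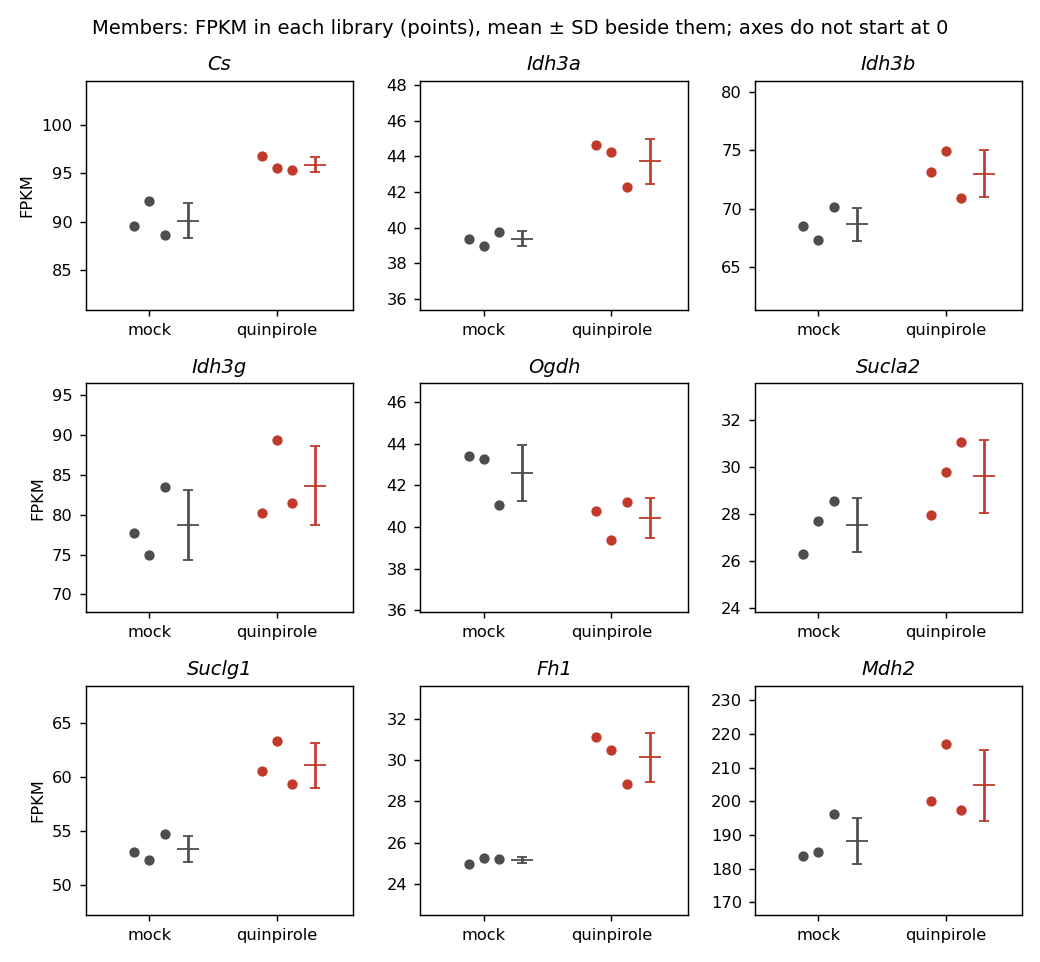
FPKM of each of the 9 members in the 3 Mock and 3 Quinpirole libraries, with points for libraries and bars for the group mean and SD on axes that do not start at 0. In 6 panels every quinpirole point lies above every Mock point, and in the Idh3g, Ogdh and Sucla2 panels the groups overlap.

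Cs (ENSMUSG00000005683; GRCm38 chr10:128337734-128362479, plus strand) encodes citrate synthase, which joins acetyl-CoA to oxaloacetate and opens the cycle. It stood at 89.6, 92.1 and 88.7 FPKM in Mock 1, 2 and 3 and at 96.8, 95.5 and 95.3 FPKM in Quinpirole 1, 2 and 3. Every quinpirole library lay above every Mock library. The means were 90.1 ± 1.79 and 95.9 ± 0.777 FPKM (SD, n = 3 each). The log2 fold change of 0.09 ± 0.03 (SE) did not pass the test (limma, adjusted p = 0.116). Of its 50-base stretches, 4.0% also occur in Csl, a related gene, so a small share of its reads could have been placed on either.

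The NAD-dependent isocitrate dehydrogenase oxidizes isocitrate to 2-oxoglutarate and is built from a catalytic alpha subunit (Idh3a) with beta (Idh3b) and gamma (Idh3g) subunits. Idh3a (ENSMUSG00000032279; chr9:54586334-54604661, plus strand) stood at 39.4, 38.9 and 39.8 FPKM in the Mock libraries and at 44.7, 44.2 and 42.3 FPKM in the quinpirole libraries. The lowest quinpirole value lay above the highest Mock value. Idh3a rose by 11.1%, from 39.4 ± 0.419 to 43.7 ± 1.27 FPKM (SD, n = 3 each), a log2 fold change of 0.15 ± 0.04 (SE; limma, adjusted p = 0.0481). Idh3b (ENSMUSG00000027406; chr2:130279309-130284547, minus strand) stood at 68.5, 67.4 and 70.1 FPKM in Mock and at 73.1, 74.9 and 71.0 FPKM after quinpirole. These groups were separated by less than 1 FPKM, between Mock 3 and Quinpirole 3. The log2 fold change of Idh3b was 0.09 ± 0.04 (SE; limma, adjusted p = 0.157). Idh3g (ENSMUSG00000002010; chrX:73778963-73786897, minus strand) stood at 77.7, 74.9 and 83.5 FPKM in Mock and at 80.2, 89.3 and 81.5 FPKM after quinpirole. The groups overlapped, since Mock 3 lay above Quinpirole 1 and Quinpirole 3. The log2 fold change of Idh3g was 0.09 ± 0.06 (SE; limma, adjusted p = 0.338), and its 95% confidence interval of -0.05 to 0.22 includes the fitted values of Idh3a and Idh3b.

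Within each library, the ratio of Idh3a to Idh3b compares subunits of 1 enzyme without regard to library scaling. It was 0.574, 0.578 and 0.567 in Mock and 0.611, 0.591 and 0.596 in quinpirole libraries. All 3 quinpirole ratios lay above all 3 Mock ratios, with means of 0.573 ± 0.00556 and 0.599 ± 0.0105 (SD, n = 3 each). The difference of 0.06 on the log2 scale (0.11 with length correction) had p = 0.1 by a two-sided exact permutation test, which is the smallest value that 3 against 3 libraries can give, so no ratio can pass 0.05 in this design. The ratio of Idh3g to Idh3b was 1.15 ± 0.0406 in Mock and 1.15 ± 0.0481 in quinpirole libraries (SD, n = 3 each), with p = 1.0 by the same exact test. Its values ranged from 1.11 to 1.19 in Mock and from 1.10 to 1.19 after quinpirole, so the groups overlapped nearly completely.

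Ogdh (ENSMUSG00000020456; chr11:6291633-6356642, plus strand) encodes the E1 component of the 2-oxoglutarate dehydrogenase complex, which turns 2-oxoglutarate into succinyl-CoA. It was the only member whose fitted fold change was negative. The Mock libraries held 43.4, 43.3 and 41.0 FPKM and the quinpirole libraries 40.8, 39.4 and 41.2 FPKM. Quinpirole 3 lay above Mock 3, so the groups overlapped. The means were 42.6 ± 1.34 and 40.4 ± 0.955 FPKM (SD, n = 3 each), a log2 fold change of -0.07 ± 0.04 (SE) that did not pass the test (limma, adjusted p = 0.259). The other components of this complex also did not pass. Dlst, the E2 core, stood at 44.8 ± 0.271 and 44.2 ± 0.999 FPKM (SD, n = 3 each; limma, adjusted p = 0.725). Dld, the E3 component shared with pyruvate dehydrogenase, stood at 35.7 ± 2.36 and 39.9 ± 1.72 FPKM (SD, n = 3 each; limma, adjusted p = 0.119), and its groups did not overlap.

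Ogdh and Idh3a encode consecutive steps and stood close in level in Mock libraries. The ratio of Idh3a to Ogdh, picked after these values were seen and therefore given without a test, was 0.907, 0.900 and 0.969 in Mock and 1.10, 1.12 and 1.03 after quinpirole. Ogdh was the higher of the pair in every Mock library and Idh3a in every quinpirole library.

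Succinate-CoA ligase converts succinyl-CoA to succinate with formation of a nucleoside triphosphate. Its alpha subunit (Suclg1) pairs with the ATP-forming beta subunit (Sucla2) or the GTP-forming beta subunit (Suclg2). Suclg1 (ENSMUSG00000052738; chr6:73248382-73276911, plus strand) stood at 53.0, 52.3 and 54.7 FPKM in Mock and at 60.6, 63.4 and 59.4 FPKM after quinpirole. More than 4 FPKM separated the groups. Suclg1 rose by 14.5%, from 53.4 ± 1.24 to 61.1 ± 2.07 FPKM (SD, n = 3 each), a log2 fold change of 0.19 ± 0.04 (SE; limma, adjusted p = 0.0322). Sucla2 (ENSMUSG00000022110; chr14:73525319-73596142, plus strand) stood at 26.3, 27.7 and 28.6 FPKM in Mock and at 28.0, 29.8 and 31.1 FPKM after quinpirole. The groups overlapped, since Quinpirole 1 lay below Mock 3. Its log2 fold change of 0.10 ± 0.05 (SE) did not pass the test (limma, adjusted p = 0.231). Suclg2, which is not among the 9, stood at 26.0 ± 1.19 and 27.7 ± 0.222 FPKM (SD, n = 3 each; limma, adjusted p = 0.222). Of its 50-base stretches, 21.8% also occur in Gm15163, so the level of Suclg2 is uncertain.

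The choice between the ATP-forming and GTP-forming subunits was compared by the ratio of Sucla2 to Suclg2. It was 1.05, 1.08 and 1.04 in Mock and 1.00, 1.08 and 1.13 after quinpirole. The ratio was near 1 in every library, and the quinpirole values lay on both sides of the Mock values. The means were 1.06 ± 0.0223 and 1.07 ± 0.0647 (SD, n = 3 each; two-sided exact permutation test, p = 1.0). The alpha subunit relative to both beta subunits together, again picked after the values were seen and given without a test, was 1.03, 0.982 and 0.978 in Mock and 1.08, 1.10 and 1.01 after quinpirole, and Quinpirole 3 lay below Mock 1.

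**Figure D2:**
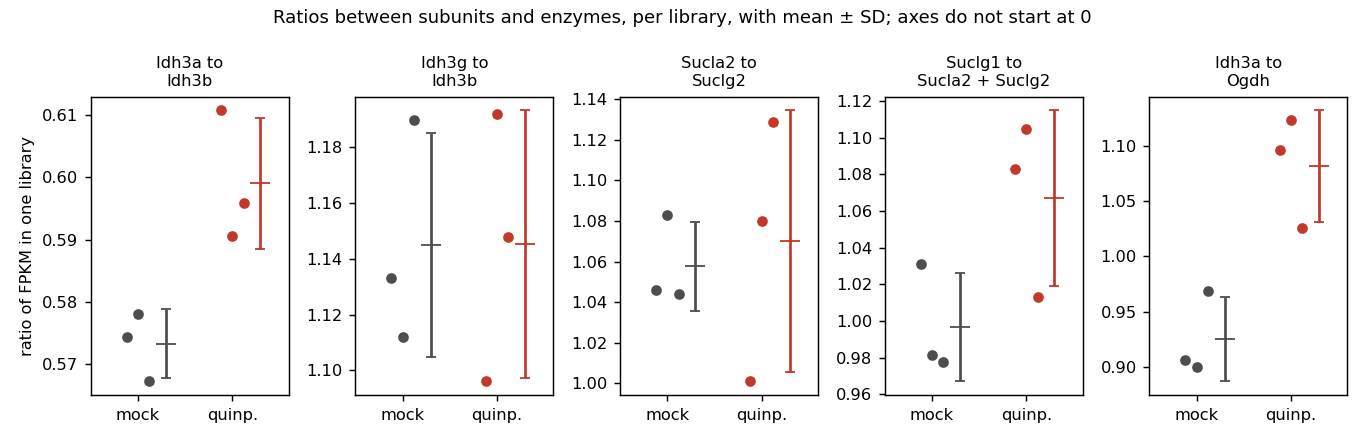
Ratio of FPKM within each library for 5 sets of subunits or enzymes, with a point for each of the 3 Mock and 3 Quinpirole libraries and bars for the mean and SD, on axes that do not start at 0. The Idh3a to Idh3b ratio (0.567 to 0.578 against 0.591 to 0.611) and the Idh3a to Ogdh ratio are separated between groups, and the other ratios overlap.

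Succinate dehydrogenase, which oxidizes succinate and is also complex II of the respiratory chain, has 4 subunits, none of them among the 9. All 4 had a positive fold change and none passed the test. Sdhb, the iron-sulfur subunit, stood at 72.5 ± 3.19 and 80.4 ± 4.67 FPKM (SD, n = 3 each; limma, adjusted p = 0.111). Sdhd, a membrane anchor, stood at 57.3 ± 2.30 and 63.0 ± 3.05 FPKM (SD, n = 3 each; limma, adjusted p = 0.111). For both, every quinpirole library lay above every Mock library, as for 4 of the 7 other cycle genes and 20.0% of all genes tested. Both are short, with exonic lengths of 2239 bases (Sdhb) and 1231 bases (Sdhd), and fold changes moved with length, as given below. With a smooth trend on length removed, the log2 fold change went from 0.15 to 0.06 for Sdhb and from 0.13 to 0.01 for Sdhd. Sdha, the flavoprotein, stood at 116 ± 3.24 and 119 ± 2.56 FPKM and Sdhc, the other anchor, at 34.7 ± 0.533 and 37.0 ± 2.08 FPKM (SD, n = 3 each), and both overlapped between groups.

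Fh1 (ENSMUSG00000026526; chr1:175600374-175625635, minus strand) encodes fumarase, which hydrates fumarate to malate and is also found in the cytosol. Mock libraries held 25.0, 25.3 and 25.2 FPKM and quinpirole libraries 31.1, 30.5 and 28.8 FPKM. The Mock libraries lay within 1 FPKM of each other, and the lowest quinpirole library, Quinpirole 3, lay more than 3 FPKM above them. Fh1 rose by 19.8%, from 25.2 ± 0.156 to 30.1 ± 1.18 FPKM (SD, n = 3 each), a log2 fold change of 0.25 ± 0.04 (SE; 95% confidence interval 0.15 to 0.35; limma, adjusted p = 0.0247). From coding length and estimated depth, the fewest fragments behind a value of Fh1, Suclg1 and Idh3a were at least 977, 1374 and 1086, each in Quinpirole 3. Counting error alone then gives a coefficient of variation of at most 3.2%, 2.7% and 3.03%. The Mock libraries of Fh1 varied by 0.618% and those of Idh3a by 1.06%, both under that limit, and their quinpirole libraries by 3.91% and 2.90%. Fragments from PCR-amplified libraries are not independent molecules, so these limits cover counting error only.

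Mdh2 (ENSMUSG00000019179; chr5:135778480-135790398, plus strand) encodes the mitochondrial malate dehydrogenase, which regenerates oxaloacetate and closes the cycle. It stood at 184, 185 and 196 FPKM in Mock and at 200, 217 and 197 FPKM after quinpirole. The groups did not overlap, though Mock 3 and Quinpirole 3 lay close together. The log2 fold change of Mdh2 was 0.12 ± 0.05 (SE; limma, adjusted p = 0.139). Its ratio to Cs, the enzyme that uses its product, was 2.09 ± 0.107 in Mock and 2.14 ± 0.117 in quinpirole libraries, and its ratio to the cytosolic Mdh1 was 1.66 ± 0.0306 and 1.62 ± 0.0411 (SD, n = 3 each). Both ratios overlapped between groups and were given without a test.

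**Figure D3:**
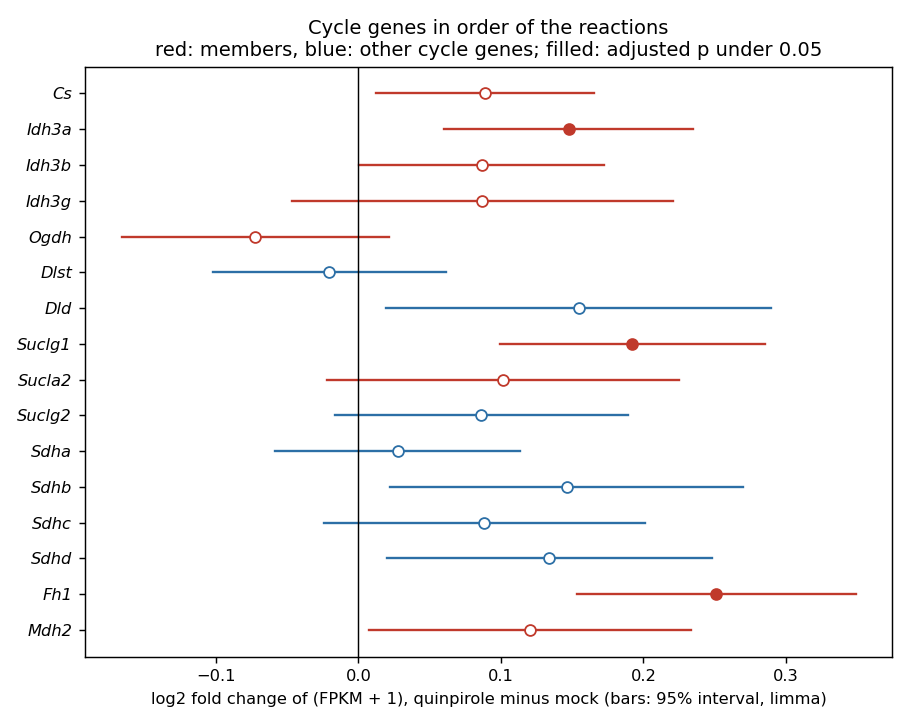
Fitted log2 fold change (quinpirole minus Mock) with its 95% confidence interval for the 9 members and 7 other cycle genes, in the order of the reactions, with red for members, blue for the other genes and filled points for genes past the threshold. Fh1 (0.25), Suclg1 (0.19) and Idh3a (0.15) passed, and Ogdh (-0.07) and Dlst (-0.02) lie left of 0.

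By level, the members spanned from 25.2 FPKM (Fh1) to 188 FPKM (Mdh2) in Mock, and every member lay above 76.3% or more of the genes tested. Mdh2 was the highest in all 6 libraries and made up 30.7% of the members' summed FPKM in Mock and 30.9% after quinpirole. Cs, Idh3g, Idh3b and Suclg1 followed in that order in all 6 libraries. Ogdh was sixth and Idh3a seventh in the 3 Mock libraries, and they changed places in the 3 quinpirole libraries. Fh1 was below Sucla2 in all Mock libraries, above it in Quinpirole 1 and Quinpirole 2 and below it in Quinpirole 3. The neighbours Ogdh and Idh3a, and Sucla2 and Fh1, thus stood within a few FPKM of each other. The members summed to 607, 607 and 628 FPKM in Mock and to 655, 684 and 648 FPKM after quinpirole, a mean 7.93% higher. The sum over all genes was 5.83% higher, and the members made up 0.151% to 0.152% of it in Mock and 0.152% to 0.156% after quinpirole. The share held by Ogdh was 6.94% in Mock and 6.11% after quinpirole, that of Suclg1 8.69% and 9.23%, and that of Fh1 4.10% and 4.55%.

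The fold change of a gene in these libraries moved with its exonic length. Over 12223 genes with a length, both were inversely related (Spearman's rho = -0.47), as a description across genes that are not independent. With these genes in 5 bins of equal size, the shortest bin (up to 2514 bases) had a median of 0.12, the middle bin 0.02 and the longest bin (7767 bases or more) -0.11. The members were 2701 (Idh3g) to 5779 bases (Cs) long and so lay outside both end bins. With a smooth trend on length removed, Fh1 kept a log2 fold change of 0.20 (limma, adjusted p = 0.0419) and Suclg1 0.18 (limma, adjusted p = 0.0454). Idh3a kept nearly the same value, 0.15, but no longer passed (limma, adjusted p = 0.0669). Idh3b and Idh3g, 3422 and 2701 bases long, dropped to 0.04 and 0.02. The 2 of 9 members called higher after this correction stand against 2.09% of all genes. The part of length in the uncorrected differences was not tested further.

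**Figure D4:**
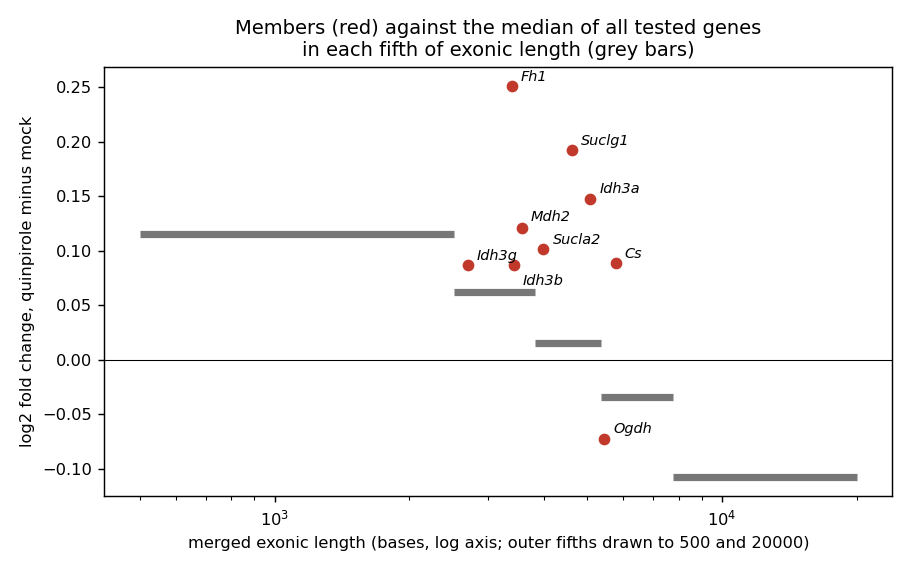
Log2 fold change (quinpirole minus Mock) against exonic length in bases on a log axis, with red points for the 9 members and grey bars for the median of all tested genes in each of 5 length bins of equal size. Medians fall from 0.12 in the shortest to -0.11 in the longest bin, and every member but Ogdh lies above the bar at its length.

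The calls also depended on single libraries and on scaling. Over 17 alternative settings, values spanned 0.19 to 0.28 for Fh1, 0.14 to 0.21 for Suclg1 and 0.10 to 0.17 for Idh3a on the log2 scale, and no member changed sign. Fh1 was called in 11 of the 17 settings, Suclg1 in 7 and Idh3a in 3. Without Mock 1, Mock 2, Quinpirole 1 or Quinpirole 2 no member was called, but of all 12255 genes only 6, 3, 11 and 25 were called there, so these counts say nothing particular about the members. Without Mock 3, Fh1 and Suclg1 were called among 1215 genes. After quantile normalization, which forces the libraries to 1 distribution, the median log2 fold change of the members was 0.02, with 0.01 for Cs and for Mdh2 and 0.22 for Fh1, the only member then called. Of the 9 members, 8 kept a positive value under that scaling and Ogdh stood at -0.11.

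**Figure D5:**
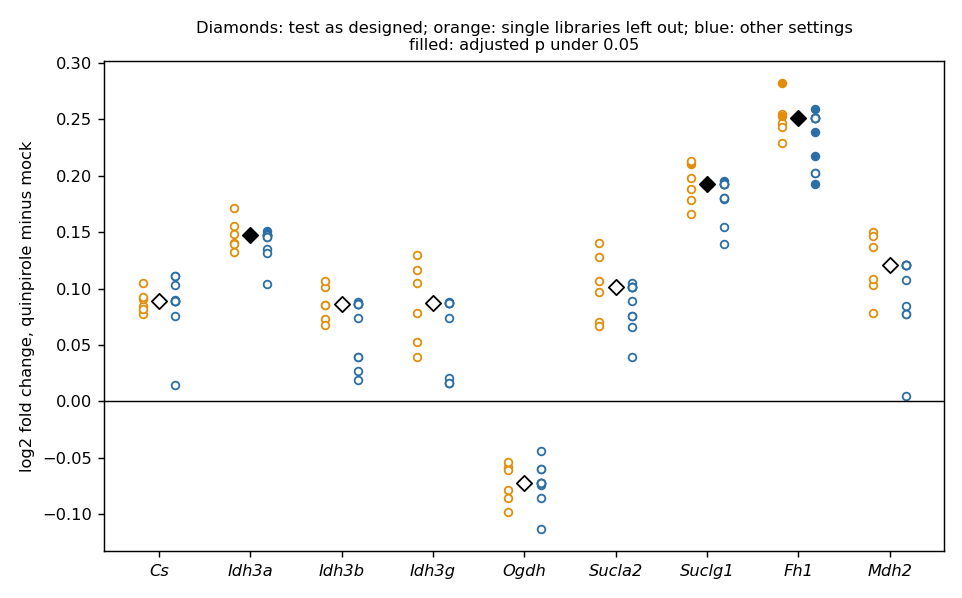
Log2 fold change (quinpirole minus Mock) of the 9 members under the reported fit (diamonds) and the 17 alternative settings, with orange points for single libraries left out, blue points for other settings and filled symbols where the member passed the threshold. All points of Ogdh lie below 0, those of the other members lie above 0, and Fh1 spans 0.19 to 0.28.

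Beyond the 9 members, the genes around the cycle were read from the same fit. Of 7 other cycle genes (Suclg2, Dlst, Dld and the Sdh subunits), limma called 0 and 3 had an unadjusted p under 0.05, all of them higher, while 6 had a positive fold change and the median was 0.09. Of 21 genes that feed or drain the cycle (pyruvate dehydrogenase and its kinases and phosphatases, pyruvate carriers, pyruvate carboxylase, glutamate and glutamine enzymes, citrate lyase and carriers of intermediates), 1 rose, none fell, 7 had an unadjusted p under 0.05 as higher and 2 as lower, 14 had a positive fold change and the median was 0.03. The gene that rose was Pdk3, a kinase that inhibits pyruvate dehydrogenase, at 11.7, 11.1 and 11.9 FPKM in Mock and 12.8, 14.0 and 14.0 FPKM after quinpirole. All 3 quinpirole libraries lay above the Mock libraries, and the log2 fold change was 0.22 ± 0.06 (SE; limma, adjusted p = 0.04996), at the edge of the threshold. It was 0.14 with length correction (limma, adjusted p = 0.139) and 0.13 with length and GC correction (limma, adjusted p = 0.173), and neither passed. The 9 related enzymes were isozymes, malic enzymes and the paralogue Ogdhl (Aco1, Idh1, Idh2, Mdh1, Me1, Me2, Me3, Got1 and Ogdhl). Of these, limma called 0, and 5 had an unadjusted p under 0.05 as higher. All 9 had a positive fold change and the median was 0.11. With length correction, 0 of the 7, 8 of the 21 and 2 of the 9 genes had an unadjusted p under 0.05 in either direction, against 3158 of 12223 genes. The medians were then 0.06, 0.05 and 0.06, against 0.01 over all genes. Of all genes tested, 5.74% were called higher, and an unadjusted p under 0.05 was reached as higher by 17.3% and as lower by 14.0%. Non-overlapping groups were found as higher for 8 and as lower for 3 of the 21 entry and exit genes, against 20.0% and 16.9% of all genes.

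The mean of the members' centred log2 values was -0.07, -0.07 and -0.03 in Mock 1, 2 and 3 and 0.05, 0.09 and 0.03 in Quinpirole 1, 2 and 3, so Mock 3 and Quinpirole 2 were the highest of their groups. Suclg1 followed this mean most closely (Pearson's r = 0.997 over the 6 libraries), and Ogdh ran against it (r = -0.92). Among genes outside the lists above, the 5 with the highest r were Gabarap (0.999), Cisd1 (0.999), Copz1 (0.999), Rpl4 (0.998) and Rps4x (0.998). Gabarap, which acts in autophagosome formation, stood at 151, 150 and 159 FPKM in Mock and at 183, 196 and 178 FPKM after quinpirole. Cisd1, a protein of the outer mitochondrial membrane, stood at 36.5, 36.6 and 37.7 against 41.1, 42.8 and 40.8 FPKM. These correlations describe 6 libraries in 2 groups that also share the FPKM scale, and they carry no p-value.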

How the data were processed

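Astrocyte RNA from 3 Mock and 3 Quinpirole samples was sequenced by the authors as paired-end poly(A) libraries on an Illumina HiSeq platform. Per the paper's methods and the submitters' processing notes, reads with no or 1 mismatch were aligned with TopHat2 to GRCm38. The authors deposited FPKM per gene and library. The FPKM program, the annotation and strand use in counting are not given in the sources used here. Symbols, positions and lengths came from GENCODE M21, which matched 17090 of 17193 identifiers. Values were taken as log2(FPKM + 1), genes with a mean under 1 FPKM were left out, and groups were compared with limma 3.58.1 (trend, two-sided, R 4.3.3) with Benjamini-Hochberg adjustment, after the procedure was tested on simulated data. No count model was used, since low values gave whole fragments for only part of the genes. Ratios were compared by exact permutation. All 9 members and 7 other cycle genes were named, with called genes from the other lists. Members and lists were chosen with earlier results of these data known, and some genes of these lists are not reported here. Alternatives covered the pseudocount, filter, scaling, length and GC correction, variance model, replicate block and each library left out.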

Additional observations from a re-analysis of the deposited data

How the results depend on the processing

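No member changed sign under any of 17 alternatives. Of the 153 member values, 123 kept their side of the threshold and 30 lost the call. The count of members called, 3 as reported, was 1 under quantile normalization, 1 without the variance trend, 1 with length and GC correction, 0 with a replicate block, 0 with a replicate block and length correction, and 0 to 2 with a library left out. The 7 other cycle genes gave 0 calls in every one of the 17 settings. The entry and exit genes called went from 1 to 0 without the filter, under median ratio scaling, quantile normalization, no variance trend, length correction, length and GC correction and both block fits, to 2 with robust variances, and were 0 to 3 with a library left out. The related enzymes (isozymes, malic enzymes and Ogdhl) called went from 0 to 1 with length correction and 1 with length and GC correction, in both cases Me3. Over all genes, the 1339 calls became 633 without the filter, 783 under quantile normalization, 714 without the trend, 509 with length correction, 375 with length and GC correction, 2 with a replicate block (3308 at an unadjusted p under 0.05) and 0 with a replicate block and length correction (2723 unadjusted). With a library left out they ranged from 3 without Mock 2 to 1215 without Mock 3 (6 without Mock 1, 11 without Quinpirole 1, 25 without Quinpirole 2 and 210 without Quinpirole 3). Leaving out a library leaves fewer samples. The share called higher was 52.6% as reported, 45.6% under median ratio scaling, 41.0% without the trend and 36.1% under quantile normalization. Signs turned for Dlst (0.0683 with length correction, 0.0619 with length and GC correction, 0.0683 with a replicate block and length correction), for Sdha (-0.0636 under quantile normalization) and for ratios near 0. The log2 difference of Sucla2 to Suclg2 was -0.0244 without Quinpirole 3 (range -0.0244 to 0.0625 with a library left out), and that of Idh3g to Idh3b was 0.0001 with a pseudocount of 1, 0.0282 without Mock 3 and 0.0313 without Quinpirole 1 (range -0.0293 to 0.0313). Idh3a to Idh3b, 0.0634 as reported, was 0.0493 to 0.0737 with a library left out, 0.0879 under quantile normalization and 0.1093 with length correction. The cause of these shifts was not tested. Same-numbered libraries had correlations of 0.026, -0.066 and -0.10, and differently numbered ones -0.097 to 0.15. With 3 libraries per group, these values cannot tell whether the numbers mark a shared litter, day or batch, which the labels do not give. The replicate block left the fold changes of the members unchanged, so a call lost under it is not a smaller effect. Depth was estimated and no counts were used, which limits what can be said of each value's precision.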

Other observations

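Among the genes that feed or drain the cycle, 3 had lower values in every quinpirole library than in every Mock library, and none passed the test. That is 3 of 21, against 16.9% of all genes tested, while 8 of 21 were higher in every quinpirole library. They were picked after their values were seen. Pcx, pyruvate carboxylase, which refills oxaloacetate, stood at 66.2 ± 1.88 FPKM in Mock and 62.0 ± 1.44 FPKM after quinpirole (SD, n = 3 each; limma, adjusted p = 0.140). Acly, ATP citrate lyase, which splits exported citrate in the cytosol, stood at 58.6 ± 1.53 and 55.0 ± 1.17 FPKM (SD, n = 3 each; limma, adjusted p = 0.151). Pdk2, a kinase of pyruvate dehydrogenase, stood at 43.2 ± 0.424 and 41.7 ± 1.25 FPKM (SD, n = 3 each; limma, adjusted p = 0.396).

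Me3, a mitochondrial malic enzyme, also picked after its values were seen, stood at 4.09, 3.87 and 3.98 FPKM in Mock and at 5.26, 4.69 and 4.54 FPKM after quinpirole (limma, adjusted p = 0.0708). Its exonic length of 14624 bases puts it in the longest of the 5 length bins, whose median log2 fold change was -0.11, while its own was 0.22. Mdh1, the cytosolic malate dehydrogenase, stood at 113 ± 3.66 and 127 ± 5.79 FPKM (SD, n = 3 each; limma, adjusted p = 0.0637). Slc25a11, the carrier that exchanges 2-oxoglutarate for malate, stood at 49.0, 48.2 and 52.9 FPKM in Mock and at 57.5, 61.7 and 54.5 FPKM after quinpirole (limma, adjusted p = 0.0583). Mdh1 and Slc25a11 were likewise picked after their values were seen. Every quinpirole library lay above every Mock library for Me3, Mdh1 and Slc25a11. The same held for 6 of the 9 related enzymes, 8 of the 21 entry and exit genes and 20.0% of all genes tested.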
